A study of Mus musculus with 300 samples.

Results

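Lta, Ltb, Fasl and Cd27 were followed across single cells of the early thymic progenitor (ETP) population of the mouse embryonic thymus at E15.5. They were chosen by name, with earlier results of these data known, as ligands and a receptor of the tumour necrosis factor (TNF) superfamily. They are 4 of the 13737 features in the deposited matrix. Each was read in all 261 cells of the matrix. The cells came from the 5x polychromILC strain, which carries reporters at several lymphoid transcription factor loci, among them Id2, Gata3, Rora and Bcl11b. Individual cells were sorted into plates and full-length cDNA was sequenced by Smart-seq2. The labels give 4 mouse ids, 1A, 1B, 2A and 2B, with 67, 69, 64 and 61 cells in the matrix out of 73, 80, 76 and 71 labelled. All cells belong to 1 group with no treatment, and all carry the reporter alleles, so the comparisons below are among cells and are summarised over the 4 mice. The sources used here give neither the gate that defined an ETP nor whether a mouse id is 1 embryo.

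TNF superfamily ligands are mostly trimeric proteins held in the membrane of lymphoid and myeloid cells, and their receptors recruit TRAF adaptors that activate NF-kB, or death domain adaptors that activate caspases. Lymphotoxin-alpha, encoded by Lta, binds the TNF receptors as a secreted homotrimer, and together with the membrane protein lymphotoxin-beta, encoded by Ltb, forms a heterotrimer that binds the lymphotoxin-beta receptor Ltbr on stromal cells. In the thymus, ligands of this family from lymphoid cells act on medullary epithelium, and lymphoid tissue inducer cells are a known source of lymphotoxin. Fas ligand, encoded by Fasl, binds the death receptor Fas and is a product of cytotoxic cells. Cd27 is a receptor on lymphoid progenitors, T cells and natural killer (NK) cells, and its ligand Cd70 was not analysed here.

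Ltb and Lta lie on both sides of Tnf in the major histocompatibility region of chromosome 17. In the GENCODE annotation of GRCm38, Ltb spans chr17:35194439-35196320 on the plus strand, Tnf spans chr17:35199381-35202007 on the minus strand and Lta spans chr17:35203165-35205351 on the minus strand, so that the 3 genes fit into 10913 bases. Fasl lies at chr1:161780689-161788495 and Cd27 at chr6:125232622-125237010, both on the minus strand. The bases just upstream of the annotated starts are shown because the members of the chromosome 17 cluster were partly found in the same cells. They are from RefSeq (GRCm38.p6), which matched 4 of 4 members, and run 5′ to 3′ on the gene's strand, for 250 bases, or 182 for Ltb, whose window was shortened where a GENCODE exon begins. Capitals mark matches, searched on either strand, to 6 short motifs of lymphoid transcription factors. The NF-kB motif was taken as GGGA, any 4 bases and CC. The ETS motif was AGGAAG, as bound by factors such as Ets1 and Spi1. The RUNX family was represented by the letters TGTGGT and the GATA family by the letters AGATAA. The letters for the AP-1 factors were TGANTCA, and for the E-box of basic helix-loop-helix proteins they were CANNTG.

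Lta, chr17:35205352-35205601, minus strand: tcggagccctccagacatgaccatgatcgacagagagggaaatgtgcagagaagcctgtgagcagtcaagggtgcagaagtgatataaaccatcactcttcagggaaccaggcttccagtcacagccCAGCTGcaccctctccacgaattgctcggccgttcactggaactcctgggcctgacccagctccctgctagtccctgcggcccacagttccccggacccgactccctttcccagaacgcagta
Ltb, chr17:35194257-35194438, plus strand: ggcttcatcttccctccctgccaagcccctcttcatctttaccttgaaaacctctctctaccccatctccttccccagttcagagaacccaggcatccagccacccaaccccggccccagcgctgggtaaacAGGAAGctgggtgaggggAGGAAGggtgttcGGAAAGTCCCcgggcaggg
Fasl, chr1:161788496-161788745, minus strand: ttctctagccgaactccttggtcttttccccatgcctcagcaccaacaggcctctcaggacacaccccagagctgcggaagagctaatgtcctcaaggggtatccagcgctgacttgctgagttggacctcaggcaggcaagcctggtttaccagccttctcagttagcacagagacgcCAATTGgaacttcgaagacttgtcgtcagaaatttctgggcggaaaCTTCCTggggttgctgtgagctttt
Cd27, chr6:125237028-125237277, minus strand: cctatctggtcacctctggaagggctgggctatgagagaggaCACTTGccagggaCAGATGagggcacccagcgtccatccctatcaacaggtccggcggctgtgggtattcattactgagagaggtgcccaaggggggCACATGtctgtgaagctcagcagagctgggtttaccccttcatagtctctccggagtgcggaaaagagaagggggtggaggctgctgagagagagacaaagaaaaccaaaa

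Positions are counted back from the RefSeq start. The Ltb window held an ETS match at -118 to -113, another at -100 to -95, and an NF-kB match on the opposite strand at -87 to -78. It was the only window of the 4 with an NF-kB match. Over 182 bases, an NF-kB match was found in 12.4% and an ETS match in 21.8% of 32851 RefSeq promoters. The Lta window held a single match, an E-box at -123 to -118. The Fasl window held an E-box at -71 to -66 and an ETS match on the opposite strand at -25 to -20, and the Cd27 window held 3 E-boxes, which begin at -208, -195 and -111. Over 250 bases an E-box was found in 66.2% and an ETS match in 29.5% of the promoters. No match to the RUNX, GATA or AP-1 letters was found in the 4 windows. These were found in 14.05%, 9.99% and 6.75% of the promoters over 250 bases, and the NF-kB letters in 17.6%. None of the listed matches overlapped another.

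Deposited values are log2 expression. A gene with a no-reads level in all sets was read relative to that level, so that 0 means no reads. The other 1683 genes were used as deposited. Levels are compared only within a gene, since the sources used here name no length normalization. A cell counted as positive when its value lay above the no-reads level of the gene, and as clearly positive when its linear level lay at least 10 above it. The number of reads per cell is unknown. The number of detected genes stands in for depth, with a median of 7782 and a range of 5073 to 10337 per cell. Intervals are exact binomial 95% intervals over cells of 1 mouse or group, and cover counting error only.

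The mouse labels could not be taken at face value. The matrix contains 4 sets of cells that share exact repeated values within a set and none between sets, and these sets do not follow the labels. Sets 1 and 4 each hold cells labelled 2A and cells labelled 2B, 35 and 36 in set 1 and 26 and 25 in set 4. Y-linked transcripts (Ddx3y or Eif2s3y at a level of at least 10) were found in 78.1% and 67.9% of the cells of sets 1 and 4, but in 4.48% and 1.54% of those of sets 2 and 3. By label, they were found in 10.4%, 2.90%, 62.5% and 81.97% of cells of 1A, 1B, 2A and 2B. Of the 5 cells labelled 1A in set 4, 4 had Eif2s3y at this level. Among cells labelled 1A in set 2 it was 0 of 14 on plate AF1 and 3 of 47 on plate AF2. The mice 2A and 2B may therefore not be separate animals, and the label 1A may mix animals. The p-values over the 4 mice refer to labelled groups of cells. In the main fits with limma below, the spread was pooled over genes almost wholly, not taken from each gene alone. Results that depend on the choice between labels and sets are given both ways. Among the progenitor markers, Cd34 was detected in 94.6% of cells and the median cell had 7 of the 8 progenitor markers, in Ltb-positive and Ltb-negative cells alike. The median was 6 in Lta-positive, against 7 in Lta-negative cells, and 6 in Cd27-negative, against 7 in Cd27-positive cells. An NK/ILC-like cluster of 20 cells and 40 cells of dendritic-like, mast-like and unnamed clusters lie outside an ETP description.

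The 4 genes covered the range from rare to nearly constant detection. Lta was detected in 34 of 261 cells, Fasl in 139, Ltb in 175 and Cd27 in 242. By mouse, 11 of 67 cells had Lta in 1A, 8 of 69 in 1B, 5 of 64 in 2A and 10 of 61 in 2B, a mean of 13.1% ± 4.17 (SD, n = 4 mice). The intervals of the mice overlapped, with 8.49% to 27.5% in 1A and 2.59% to 17.3% in 2A. By set, the shares were 12.3%, 11.9%, 9.23% and 19.6% in sets 1 to 4, highest in set 4. Only 14 of the 34 Lta-positive cells, 41.2%, were clearly positive, the lowest such share among the 4 genes. The highest Lta level of any cell, 10.61 on the log2 scale, was in a cell of 2A.

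Ltb was detected in 41, 48, 47 and 39 cells of 1A, 1B, 2A and 2B, a mean of 67.03% ± 5.51 (SD, n = 4 mice), and 141 of its 175 positive cells were clearly positive. Its log2 level in positive cells had medians of 4.81, 5.02, 4.45 and 5.03 in the 4 mice, which lie close together. By set, Ltb was detected in 67.1%, 58.2%, 69.2% and 75% of cells of sets 1 to 4, again highest in set 4. The highest cell reached 10.03 in 1A, 9.46 in 1B, 9.75 in 2A and 8.31 in 2B. The lowest maximum was that of 2B, in which no cell fell in the NK/ILC-like cluster described below.

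Fasl was detected in 40, 32, 36 and 31 cells of the 4 mice, a mean of 53.3% ± 5.88 (SD, n = 4 mice). Its positive cells mostly had high levels, with a median of 6.63 on the log2 scale and 108 of 139 clearly positive. By set it was detected in 54.8%, 58.2%, 47.7% and 51.8% of cells. By mouse the median in positive cells was 6.68, 6.98, 6.90 and 6.09 in 1A, 1B, 2A and 2B, and the highest cells reached 9.07, 9.07, 10.77 and 9.95. Cd27 was detected in 62, 65, 58 and 57 cells, a mean of 92.7% ± 1.54 (SD, n = 4 mice), the most even of the 4 genes, and in 91.8% to 93.8% of cells of the 4 sets. Averaged over all cells of a mouse, its log2 level was 6.005 in 1A, 7.09 in 1B, 5.87 in 2A and 6.17 in 2B, so 1B stood above the other 3. The cells of set 3, which holds 64 of the 69 cells of 1B, had the same high mean, 7.07, and the set and the mouse cannot be told apart there.

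**Figure D1:**
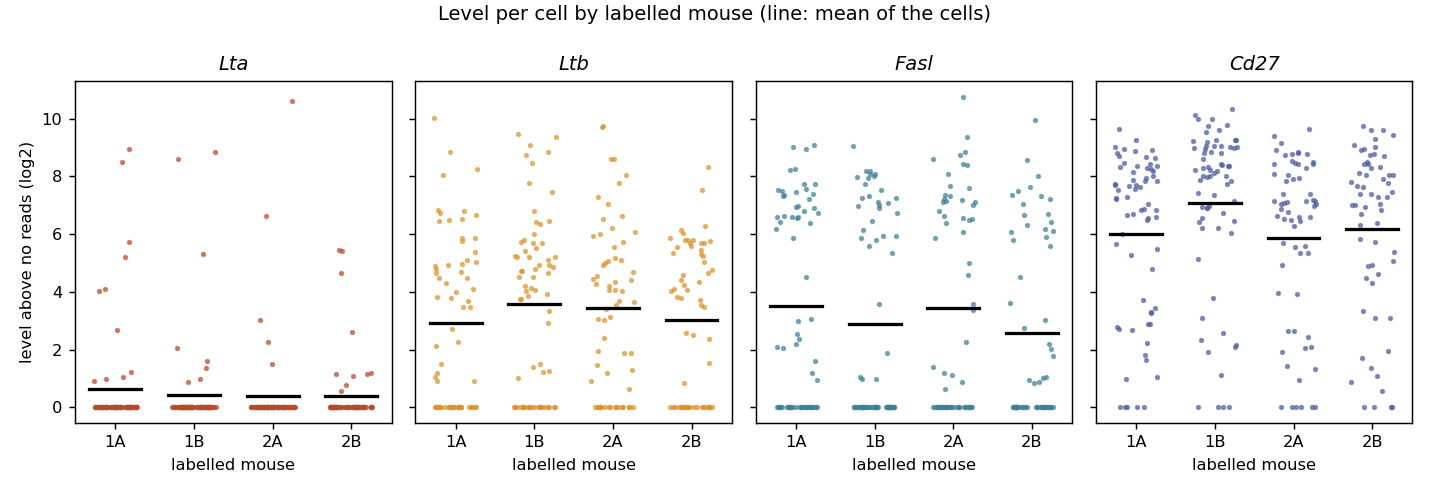
Log2 level of each gene above its no-reads level (y axis) in every cell, by labelled mouse (x axis), with the points at 0 being cells without reads. Most cells sit at 0 for Lta, Fasl splits into cells at 0 and cells around 6.63, and Cd27 lies above 0 in 92.7% of cells. Lines are means of the cells of a mouse.

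Pooled over mice, the number of detected genes differed by less for the 3 ligands than for Cd27. Lta-positive cells had a median of 7654 detected genes, against 7794 in Lta-negative cells. By mouse the largest gap for Lta was in 1B, with 6726 in Lta-positive and 7639 in Lta-negative cells, and Lta-positive cells had the lower median in all 4 mice. Ltb-positive cells had 7828, against 7662 in negative cells, with the lower median in Ltb-positive cells in 1B and the higher one in the other 3 mice. Fasl-positive cells had 7935, against 7493 in Fasl-negative cells, and the higher median in all 4 mice. The 242 Cd27-positive cells had a median of 7821 detected genes and the 19 Cd27-negative cells 6191. The number of detected genes was a term in every correlation below.

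Most cells carried several members at once. All 4 were found in 12 cells, 3 of them in 105, 2 in 93, 1 in 41 and none in 10. The most frequent combination, Ltb with Fasl and Cd27, accounted for 87 cells. It was followed by Ltb with Cd27 in 54, Fasl with Cd27 in 37, Cd27 alone in 33 and Lta with Ltb and Cd27 in 15. Lta without Ltb was seen in 6 cells.

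Lta and Ltb, the subunits of the heterotrimer, were detected in the same cells somewhat more often than the product of their shares. Of the 34 Lta-positive cells 82.4% were also Ltb-positive, against 64.8% of the 227 Lta-negative cells. Per mouse, both were found in 7 cells of 1A, 7 of 1B, 5 of 2A, which were all its Lta-positive cells, and 9 of 2B. The excess over the product of shares was 0.40, 2.08, 2.08 and 4.27 percentage points, above 0 in 4 of 4 mice with a mean of 2.21 ± 1.59 (SD). An exact two-sided sign-flip permutation test gave p = 0.12, the smallest possible with 4 mice, and an adjusted p of 0.375 over the 6 pairs of members. The partial Spearman correlation of their levels, given detected genes and plate, averaged 0.24 and ranged from 0.09 to 0.34 (67, 69, 64 and 61 cells). In the limma fit over all genes, the pair missed the threshold, with an adjusted p of 0.0904 among the Lta partners and 0.0567 among the Ltb partners. Without the NK/ILC-like cells, Ltb was found in 72.7% of Lta-positive and 63.5% of Lta-negative cells.

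Nearly all Fasl-positive cells were also Cd27-positive. Fasl was detected in 138 of the 242 Cd27-positive cells, 57.02%, and in 1 of the 19 Cd27-negative cells, 5.26%. The Cd27-negative cells had fewer detected genes, as given above, and their part in this contrast was not tested. The excess of shared cells was 2.96, 2.69, 5.27 and 3.33 points in 1A, 1B, 2A and 2B, a mean of 3.56 ± 1.17 (SD), with the same exact p = 0.12 and adjusted p = 0.375. The correlation of their levels was weaker, at 0.21, 0.00, 0.06 and 0.20.

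In the other 4 pairs the excess of shared cells did not have the same sign in all mice. It was -1.15 ± 1.85 points for Lta with Fasl, -0.19 ± 2.05 for Lta with Cd27, 2.77 ± 4.68 for Ltb with Fasl and 2.29 ± 2.35 for Ltb with Cd27 (SD, n = 4 mice). None had an adjusted exact p under 0.5. Their levels correlated positively in 4 of 4 mice for Ltb with Fasl, at 0.25, 0.11, 0.09 and 0.14 in 1A, 1B, 2A and 2B, and for Ltb with Cd27, at 0.08, 0.08, 0.25 and 0.30. The mean rho of these pairs, 0.15 and 0.18, was above that of Fasl with Cd27, 0.12. Tnf, between the lymphotoxin genes, was detected in 46 cells, of which 7 were also Lta-positive and 34 Ltb-positive. Its level correlated with that of Lta at 0.04 and with that of Ltb at 0.07 on average over mice, and both changed sign among mice.

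**Figure D2:**
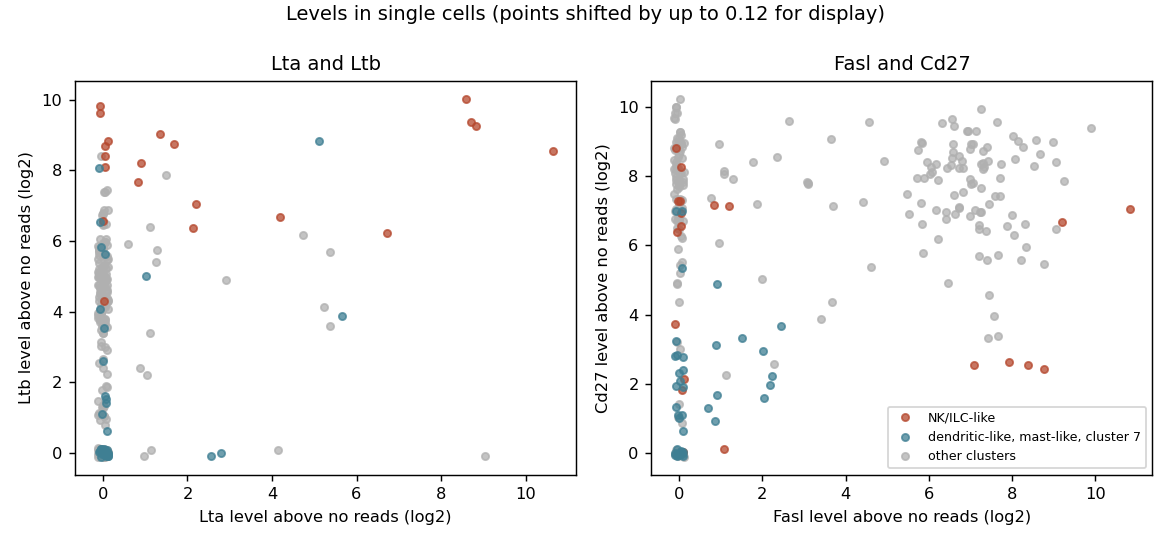
Log2 levels of pairs of members against each other, Lta (x axis) with Ltb (y axis) and Fasl (x axis) with Cd27 (y axis), each point a cell, coloured as NK/ILC-like, as dendritic-like, mast-like or cluster 7, or as other clusters. All 20 NK/ILC-like cells have Ltb at 4.197 or higher, and 1 Fasl-positive cell lies at 0 for Cd27.

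Cells were clustered without the 4 genes and without other TNF family ligands and receptors, which gave 8 clusters. A cluster of 20 cells was led by the NK receptor genes Klrk1, Klrc1 and Klrd1 and the interleukin 2 and 15 receptor chain Il2rb. Also among its leading genes were the protease genes Ctsw and Gzma, Id2, the CD3 chain gene Cd3g, Ccr8 and the reporter tagBFP. The cluster is called NK/ILC-like, and whether it holds T cells was not tested. It held 3 cells labelled 1A, 8 labelled 1B, 9 labelled 2A and 0 labelled 2B, and 18 of the 20 lay in the first 8 wells of a set. These are the first 8 analysed cells of each set, ordered by plate name and then by well, not the first wells of a plate. Of the cells labelled 2B, 0 lay in these first wells, since in sets 1 and 4 they follow cells with other labels in this order. They include wells between 1 and 30 of plate JW8. The 3 cells of 1A all lie in set 4, apart from most cells with that label. Over all cells, Lta was found in 14 of 32 cells of the first 8 wells, 43.8%, and in 20 of 229 cells of later wells, 8.73%. The part of this position within a set in the results on this cluster was not tested.

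Of the 20 NK/ILC-like cells 12 had Lta, 60% with an interval of 36.1% to 80.9%, and in 22 of the 241 other cells, 9.13% with an interval of 5.81% to 13.5%. By mouse it was found in 3 of 3, 6 of 8 and 3 of 9 NK/ILC-like cells of 1A, 1B and 2A, against 8 of 64, 2 of 61 and 2 of 55 other cells. In 2B, with no such cell, it was found in 10 of 61 cells. So NK/ILC-like cells had the higher share in each of the 3 labels that held any, but label 2B reached 16.4% without them. The 3 NK/ILC-like cells of 1A are among the 5 cells of that label in set 4, all of them Lta-positive. Separate mice are therefore not shown by these labels. Lta-positive cells as a whole had a median of 6 of 12 NK/ILC markers, against 4 in Lta-negative cells, and a median summed marker level of 27.47, against 14.41. The lowest sum was -0.04, so at least 1 of these markers has values as deposited and the sums mix scales.

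Ltb was found in all 20 NK/ILC-like cells, each clearly positive, with a median log2 level of 8.53. Among the 241 other cells it was found in 155, and the median level was 3.46. The mean level in the NK/ILC-like cells was 8.35, 8.51 and 7.64 in 1A, 1B and 2A, against 2.67, 2.95 and 2.77 in the other cells. Fasl did not follow this pattern, with 9 of 20 NK/ILC-like cells and 130 of 241 other cells positive. The share for Fasl varied among mice, with 2 of 3, 1 of 8 and 6 of 9 NK/ILC-like cells positive in 1A, 1B and 2A. Cd27 was found in 18 of 20 NK/ILC-like and 224 of 241 other cells, at a mean log2 level of 4.89 in NK/ILC-like cells and 6.42 in the others. The NK/ILC-like cells had a median of 6639 detected genes, against 7782 over all cells. These are descriptions of clustered cells and carry no test.

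In the 3 largest clusters, of 85, 50 and 48 cells, Cd27 was found in 98.8%, 98% and 100% of cells, Ltb in 64.7%, 76% and 81.3%, Fasl in 58.8%, 64% and 60.4% and Lta in 10.6%, 8.0% and 6.25%. The 40 dendritic-like, mast-like and cluster 7 cells had Fasl in 27.5% of cells, against 57.9% of the 221 remaining cells, and none of the 108 clearly Fasl-positive cells was among them. They had Cd27 in 70.0%, with 5 clearly positive cells and a mean log2 level of 1.85, against 96.8% and 7.10 in the remaining cells. They had Ltb in 37.5%, against 72.4%, and Lta in 12.5%, against 13.1%. Within them, Ltb ranged from 2 of 19 dendritic-like cells to 8 of 9 mast-like cells. The dendritic-like, cluster 7 and mast-like cells had medians of 6112, 7404 and 6786 detected genes, against 7782 over all cells. The part of this in their shares was not tested. Lta was found in 0 of the 9 mast-like cells, and by the limit of 3 cells that a count of 0 allows, the share may be up to 33.3% (upper exact bound 33.6%).

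**Figure D3:**
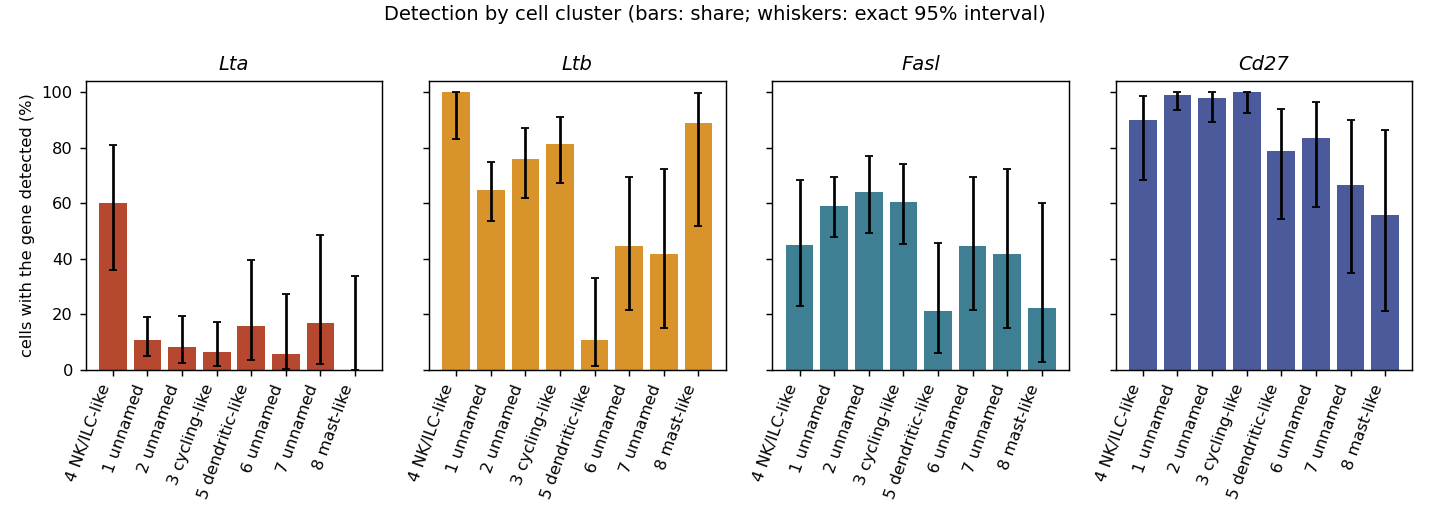
Percent of cells in which each gene was detected (y axis) in each of the 8 clusters (x axis), with exact 95% intervals. Lta stands at 60% in the NK/ILC-like cluster and at 16.7% or lower in the other 7, while Ltb falls to 10.5% in cluster 5.

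Genes that vary with each member were sought with a partial Spearman correlation across the cells of each mouse, given detected genes and plate, tested over the 4 mice with limma for each of 12431 genes and adjusted by Benjamini-Hochberg over all of them. A gene is called below at an adjusted p under 0.05. Called genes were chosen by their correlation in these cells, and the alternative settings below reuse most of the cells. A sign kept under an alternative is therefore no independent support.

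Lta varied with NK and cytotoxic genes. It had 33 called partners, 31 positive and 2 negative, which is 0.265% of the genes tested. By correlation they were led by Togaram2 with a mean rho of 0.43 (adjusted p = 3.91e-05, limma), the chemokine receptor gene Ccr8 with 0.41 (adjusted p = 7.75e-05), Klrd1, which encodes the CD94 chain of NK receptors, with 0.40 (adjusted p = 0.000165) and the T cell receptor gamma constant gene Tcrg-C4 with 0.36 (adjusted p = 0.00173). Next were the chemokine gene Ccl5, Chpf, the activating receptor gene Klrk1, S100a4, the chemokine receptor gene Cxcr6, Tnfrsf25, Klrc2, the CD3 chain gene Cd3g, Klrc1, Klrb1c and Tnfrsf9, with mean rho between 0.31 and 0.33. Id2, the inhibitor of E proteins needed by innate lymphoid cells, was called with 0.30 and Il2rb with 0.27. The negative partners were Angpt1 with -0.29 and the mast cell and progenitor protease gene Cpa3 with -0.28.

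In cells with Lta, Ccr8 was detected in 64.7%, against 17.6% of cells without it. Klrd1 was found in 58.8% of cells with Lta, against 14.5% of those without, and Togaram2 in 44.1%, against 5.29%. Outside the NK/ILC-like cluster the direction was the same, with Ccr8 in 45.5% of cells with Lta and 15.1% of those without. The mice were unequal. For Ccr8 the rho was 0.51, 0.54, 0.43 and 0.11 in 1A, 1B, 2A and 2B, and the median over the called genes was 0.44, 0.43, 0.30 and 0.05. So the correlations were close to 0 in 2B, and 8 of the 33 called genes had mixed signs. The label 2B held 0 NK/ILC-like cells and 0 cells of the first 8 wells of a set. The label and the position within a set cannot be told apart there.

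Of the NK and cytotoxic list, 10 of 19 tested genes were called positive (Ncr1, Klrk1, Klrb1c, Klrb1b, Klrd1, Klrc1, Klrc2, Ccl5, Ctsw and Il2rb). All 19 had a positive mean rho, with a median of 0.27, against -0.0039 over all genes. Of 19 innate lymphoid genes tested, 3 were called (Id2, Il2rb and Cxcr6), 14 had a positive mean rho and the median was 0.06. None of the 18 progenitor genes was called with Lta, and their median was -0.07. Of the 17 TNF receptor genes tested, Tnfrsf9, which encodes the co-stimulatory receptor 4-1BB, and Tnfrsf25, which encodes death receptor 3, were called with 0.31 and 0.32. Among NK/ILC-like cells 80% had Tnfrsf9 and 35% had Tnfrsf25, while the shares in other cells were 22.4% for Tnfrsf9 and 9.96% for Tnfrsf25.

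The number of Lta calls moved with the cells and settings used. Without the NK/ILC-like cells 0 genes were called (499 at an unadjusted p under 0.05), with only 2 mice holding enough Lta-positive cells, and all 28 of the called genes still tested kept their sign, with a median absolute rho of 0.21, against 0.30 with them. With the 4 sets in place of mice, 95 genes were called, the 33 among them, and without the 14 cells of thinly filled mouse and set pairs 5 were called. The Pearson correlation and the deposited values as they are each gave 0 calls (816 and 435 at an unadjusted p under 0.05), at a median absolute rho of the 33 genes of 0.29 and 0.25 and with the sign of all 33 kept. In these fits the spread was pooled less over genes than in the main fit, and the part of this in the lost calls was not tested. Leaving out 1 mouse gave 0 without 1A (702 at an unadjusted p under 0.05), 7 without 1B, 10 without 2A and 112 without 2B.

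Ltb had 64 called partners, 47 positive and 17 negative, 0.515% of the genes tested. The highest was Dok2, a signalling adaptor of haematopoietic cells, with a mean rho of 0.39 (adjusted p = 0.000177, limma), followed by Shisa5 with 0.36, the carbonic anhydrase gene Car2 with 0.35, Togaram2 with 0.35 and Ccr8 with 0.34. Further named positive partners were Anxa6, S100a4, Klrb1c, the granule gene Nkg7, S100a10, the common cytokine receptor chain gene Il2rg, Fam102a and the protein kinase A subunit gene Prkacb, between 0.30 and 0.33. The lowest were Plac8 with -0.34 and the ferritin heavy chain gene Fth1 with -0.32. Tcf4, a factor of plasmacytoid dendritic cells, was also negative, with -0.26.

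Unlike the rare Lta partners, several of these were detected in nearly every cell and differed in level. Dok2 had a mean log2 level of 8.03 in Ltb-positive cells, against 5.90 in Ltb-negative cells, Nkg7 had 7.86, against 5.96, and Il2rg had 8.46, against 7.50. Il2rg lacked a no-reads level in some sets, so its values are as deposited. The same holds for at least 1 of the 12 NK/ILC markers, among them Nkg7, since their summed level fell to -0.04. For Dok2 the rho was 0.54, 0.26, 0.46 and 0.28 in 1A, 1B, 2A and 2B, and it was called again without the NK/ILC-like cells (0.29, adjusted p = 0.047, limma). Ccr8, with 0.29, 0.34, 0.57 and 0.13, was not (0.17, adjusted p = 0.48).

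Of the NK and cytotoxic list, 6 of 19 genes were called with Ltb (Klrb1c, Klrb1b, Klrd1, Klrc2, Nkg7 and the interferon gamma gene Ifng), all positive, with a median rho of 0.24, against 0.0057 over all genes. Of 21 T specification genes, Cd3g and Cd7 were called. The list of 13 dendritic genes tested had 1 called, Tcf4, and a median of -0.10. No TNF ligand, receptor, TRAF, NF-kB or death receptor gene was called with Ltb.

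The number of Ltb calls moved as well. There were 3 called genes without the NK/ILC-like cells, 2 without the thin pairs and 130 with the sets in place of mice. Leaving out 1 mouse gave 0 calls without 1A (899 at an unadjusted p under 0.05), 14 without 1B, 1 without 2A and 143 without 2B. The sizes moved less than the counts, since the median absolute rho of the called genes, 0.27 over all cells, was 0.28 without 1A, 0.25 without the thin pairs and 0.19 without the NK/ILC-like cells, with every sign kept among those still tested.

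Lta and Ltb shared 11 called genes, 33.3% of those of Lta and 17.2% of those of Ltb (Ccr8, Cd3g, Chpf, Clnk, Il2rg, Klrb1b, Klrb1c, Klrc2, Klrd1, S100a4 and Togaram2). Their difference, tested gene by gene over the 4 mice, gave 0 called genes of 12430, 0.0%, with 850 at an unadjusted p under 0.05 (limma). A gene called for Lta and not for Ltb is therefore not shown to differ between them. The 33 Lta partners had a median rho of 0.23 with Ltb, and all 33 had the same sign.

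Fasl varied with transcripts of the Trbj1 and Trbc1 cluster of the T cell receptor beta locus. It had 10 called partners, 10 positive and 0 negative, 0.0804% of the genes tested, and 8 of them were Trbc1 and the joining segments Trbj1-1 to Trbj1-7. These lie within 6018 bases of chromosome 6. Reads over such short neighbouring segments can be split between them, so the 8 are not separate observations and the single segments are uncertain. Trbc1, the constant gene of the cluster, had a rho of 0.28, 0.39, 0.26 and 0.29 in 1A, 1B, 2A and 2B, a mean of 0.31 (adjusted p = 0.00871, limma). Its log2 level was 8.74 in Fasl-positive cells, against 6.68 in Fasl-negative cells, a difference of 2.10 ± 0.53 as a mean over mice (SD, n = 4). Trbc2, the other constant gene of the locus, was not called, with a mean rho of 0.20 (adjusted p = 0.376, limma). By mouse its rho was 0.33, 0.28, 0.22 and -0.03 in 1A, 1B, 2A and 2B.

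The other called partners were Gpr37, with a mean rho of 0.29, and the phosphatase gene Ptp4a3, with 0.27. Gpr37 was detected in 74.8% of cells with Fasl, against 50.8% of those without it. The 19 NK and cytotoxic genes gave 0 calls with Fasl and a median of 0.06, against 0.0079 over all genes. None of the 9 tested death receptor genes was called. Of 21 T specification genes only Trbc1 was called.

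The Fasl calls were lost under several left-out sets of cells. Without the 40 dendritic-like, mast-like and cluster 7 cells, which hold no clearly Fasl-positive cell, 0 genes were called (683 at an unadjusted p under 0.05), and Trbc1 had a rho of 0.23 (adjusted p = 0.764, limma). Without the NK/ILC-like cells 14 genes were called, and leaving out 1A, 1B or 2B gave 0 (680, 779 and 726 at an unadjusted p under 0.05), while leaving out 2A gave 11. All 10 genes kept their sign each time, with a median rho of 0.23 without the 40 cells and 0.28 without each of 1A, 1B and 2B, against 0.285 over all cells.

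Cd27 varied with progenitor genes. It had 210 called partners, 184 positive and 26 negative, 1.69% of the genes tested. Cd34, the surface marker of haematopoietic progenitors, led with a mean rho of 0.48 (adjusted p = 6.15e-09, limma), with 0.68, 0.20, 0.38 and 0.59 in 1A, 1B, 2A and 2B. It was followed by the potassium channel gene Kcnn4 with 0.42, the histone variant gene H2afy with 0.39, Egfl7 with 0.38, the receptor tyrosine kinase gene Pdgfrb with 0.38, the DNA methyltransferase gene Dnmt3b with 0.36, Gtf2h3 and Gramd1a with 0.35 each, the serine synthesis gene Phgdh with 0.34, and Sox4, the chaperone gene Hsp90ab1 and the Polycomb accessory gene Mtf2 with 0.32 each. The negative ones with the largest size were the actin-binding gene Tmsb4x with -0.34, the sodium pump gene Atp1b1 with -0.34 and the Fc receptor chain gene Fcer1g with -0.33. The correlations were lower in 1B than in the other 3 mice for most of them, with a median over called genes of 0.29, 0.17, 0.23 and 0.34.

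In levels, Cd34 averaged 7.52 in the 242 Cd27-positive cells, against 2.62 in the 19 Cd27-negative cells, and Pdgfrb averaged 6.38, against 1.88. Fcer1g averaged 5.23 in Cd27-positive cells, against 7.87 in Cd27-negative cells. Of the 18 progenitor genes 7 were called positive with Cd27 (Kit, Cd34, Hhex, Hoxa9, Mycn, Myb and Erg), none negative, with a median rho of 0.18, against 0.0276 over all genes. Of 21 T specification genes Gata3, Lck and Trbc2 were called positive. Of 19 NK and cytotoxic genes only Fcer1g was called, negative, and of 13 dendritic genes only Irf8, with -0.28.

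Summed levels of lineage markers differed with Cd27, in both directions. The summed level of 14 dendritic markers had a median of 24.51 (range 0.78 to 128.27) in Cd27-positive cells, against 38.82 (7.31 to 118.74) in Cd27-negative cells, and that of 8 progenitor markers 49.26 (1.77 to 68.43), against 28.94 (10.67 to 48.97). The median for NK/ILC markers, at least 1 of them with values as deposited, was 16.17, against 10.69, and for T lineage markers 26.03, against 8.01. Macrophage markers had 7.82, against 9.41, and mast and basophil markers 8.05, against 9.0. These sums are not adjusted for the lower number of detected genes in Cd27-negative cells. Without the 40 dendritic-like, mast-like and cluster 7 cells, 5 genes were called, Cd34, H2afy, Kcnn4, Gtf2h3 and Tspan13, and Cd34 kept a rho of 0.42 (adjusted p = 8.12e-05, limma). The median absolute rho of the 206 called genes still tested was 0.16 there, against 0.25 for the 210 over all cells. The calls numbered 399 without the NK/ILC-like cells, 113 with the sets in place of mice and 114 without the thin pairs, and leaving out 1 mouse gave between 10, without 1A, and 280, without 1B.

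**Figure D4:**
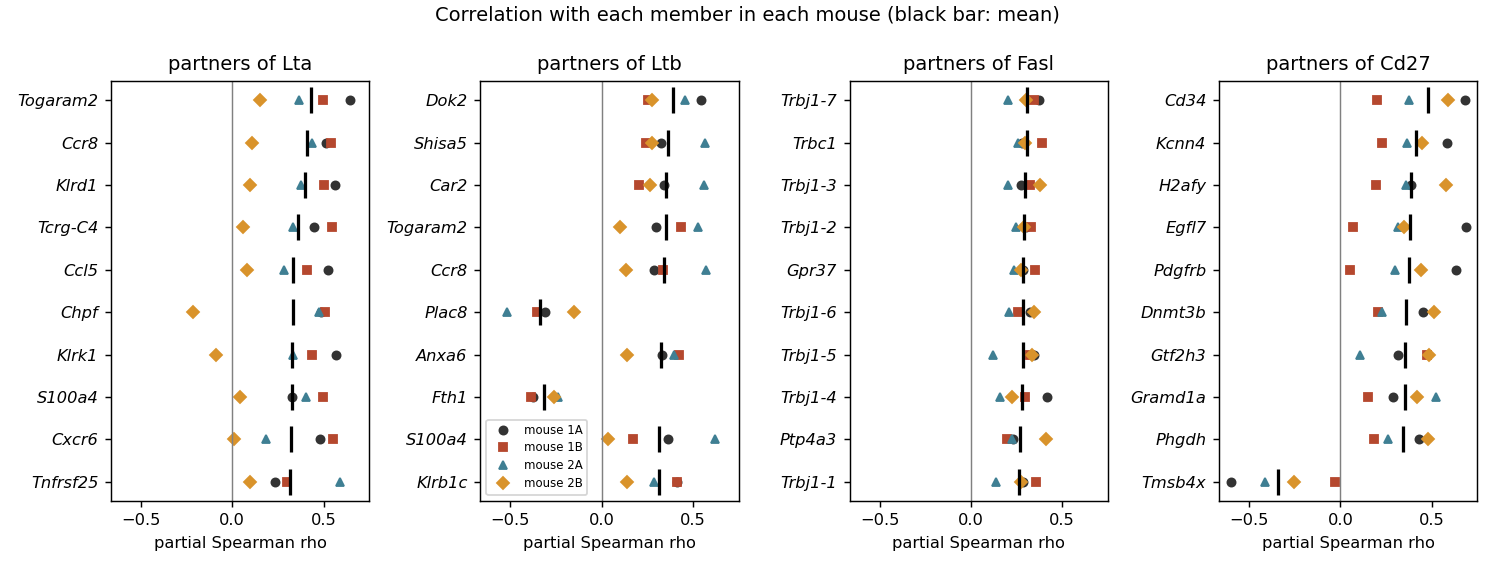
Partial Spearman rho with each member (x axis) for its named partner genes (y axis), with a point for each of the 4 mice and a bar for their mean. The 2B points are the lowest for each of the 10 Lta partners shown, while the Fasl partners stay between 0.12 and 0.41 in every mouse.

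Lta and Cd27 had different partners. The difference of their correlations was called for 212 of 12430 genes, 1.71%, with 63 higher with Lta and 149 higher with Cd27 (limma). On the Fisher z scale, as Lta minus Cd27, the largest were Cd34 with -0.70 (adjusted p = 6.91e-09), Kcnn4 with -0.61, Pdgfrb with -0.55, H2afy with -0.53, Anks1 with -0.53 and, in the other direction, Togaram2 with 0.52. Myb, Sox4 and Serpinb1a followed with -0.51, -0.51 and -0.50, and then Fcer1g with 0.50. Of the 19 NK and cytotoxic genes 11 were higher with Lta and 0 with Cd27, and of the 18 progenitor genes 0 were higher with Lta and 6 with Cd27. Tnfrsf25 and the NF-kB subunit genes Nfkb2 and Relb were also higher with Lta. Leaving out the NK/ILC-like cells left 17 genes that differed, without the dendritic-like, mast-like and cluster 7 cells 31, and without 1A 17. With the deposited values as they are 0 differed (1120 at an unadjusted p under 0.05), in a fit that also pooled the spread less than the main fit.

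**Figure D5:**
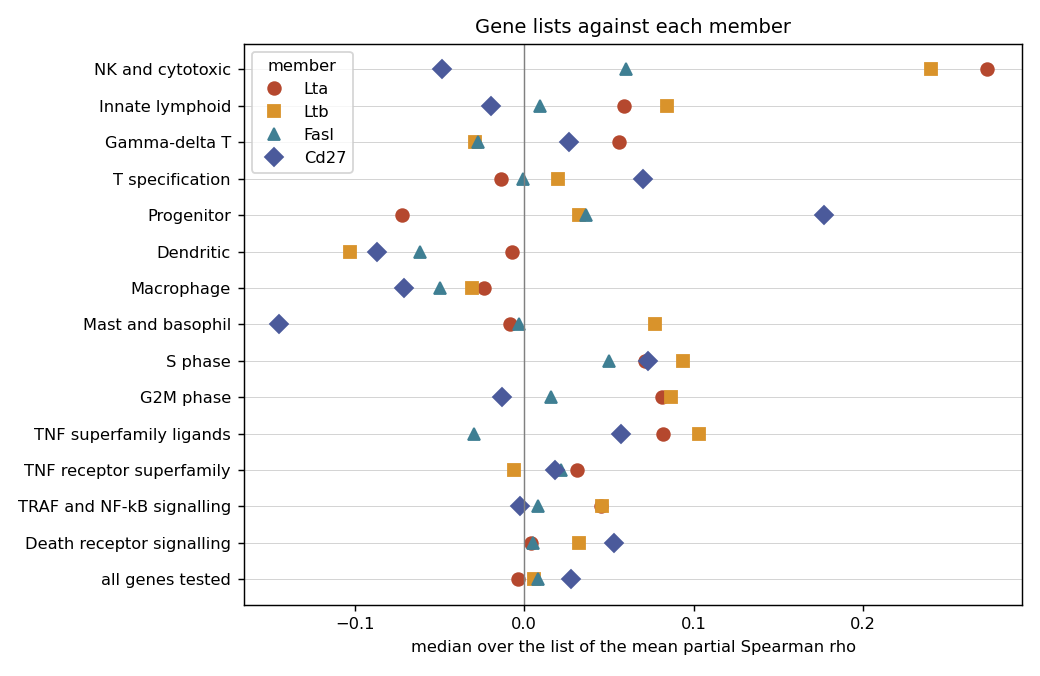
Median over the genes of each list (y axis) of the mean rho with each member (x axis, a marker for each member), with the median over all genes tested in the lowest line. The NK and cytotoxic list has medians of 0.27 with Lta and 0.24 with Ltb, and the progenitor list has its highest median, 0.18, with Cd27.

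Receptors of the ligands were present in these cells to differing degrees. Tnfrsf14, a receptor for lymphotoxin-alpha and for the ligand encoded by Tnfsf14, was counted as detected in all 261 cells. It had no repeated no-reads level in any set. Tnfrsf1b was found in 78.5% of cells and Tnfrsf1a in 67.05%, both TNF receptors. Ltbr, the receptor of the lymphotoxin heterotrimer, was found in 43.7% of cells, with 35.8%, 40.6%, 46.9% and 52.5% in 1A, 1B, 2A and 2B. Where Ltb was highest, in the 20 NK/ILC-like cells, Ltbr was found in 5.0%, and in the other cells it was found in 46.9%. The NK/ILC-like cells had fewer detected genes, as given above, and the part of this in the contrast was not tested. Fas was found in 6 cells, 2.30%, while its ligand gene was found in 53.3%.

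The adaptors that Cd27 is known to use were widely detected, Traf2 in 89.3% of cells, Traf5 in 83.1% and Siva1 in 90.8%, and Traf3, of the lymphotoxin-beta receptor pathway, in 65.1%. Downstream of Fas, Casp8 was found in 93.9%, the inhibitor gene Cflar in 90.04% and Fadd in 50.2%. None of the 26 TRAF and NF-kB genes and none of the 9 tested death receptor genes was called with any member. Of the other TNF ligands, 7 of 15 listed were in the matrix. Tnfsf10, which encodes TRAIL, was found in 57.5% of cells, Tnfsf14 in 22.99%, Tnfsf11, which encodes RANKL, in 18.4% and Tnf in 17.6%. None of the 4 that could be tested was called with a member.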

How the data were processed

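The deposited matrix holds log2 expression values for 13737 features in 261 cells, 1 column per cell, made by the authors. Per the submitters' processing notes, the tool Salmon and the build GRCm38 were used, and no version is stated, nor are the depth scaling, a batch correction or the filters. Values run from -4.13 to 15.99, and most genes have a repeated lowest value in each of 4 sets of cells. That value was taken as the no-reads level and set to 0 for 12054 genes, while 1683 without it in all sets were used as deposited. A gene was detected at over 1e-06 above it, and in every cell of a set without it. Read depth is unknown, so the precision is given by cell numbers. Of the IDs, 13578 were matched to gene names, and 0 columns were left unused.

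Correlations were computed per labelled mouse, for genes detected in at least 10% of cells and mice with at least 3 member-positive cells, and limma 3.58.1 (R 4.3.3) compared their Fisher z values, 1 per mouse, with 0 in a two-sided test. In the main fits limma pooled the spread over genes almost wholly, so a gene can be called although its rho varies among mice. The pooling was weaker in some alternatives. Its weight, the prior degrees of freedom, was 96.31 for Lta in the main fit, 8.49 with the Pearson correlation and 10.38 with the deposited values. For Lta minus Cd27 with the deposited values it was 11.47. Python 3.11.15 with scikit-learn 1.9.0 (Ward clustering on principal components) and scipy 1.17.1 were used. The procedure was checked on simulated data, with a continuous member level in every cell and the same correlation in all mice. The simulated cells had no clusters and no rarely detected member, so the check does not cover the setting of the Lta calls. Cells were not screened for doublets.

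The members and gene lists were chosen with earlier results of these data known. Named genes are the 15 called partners of each member with the largest absolute rho, the 10 largest called differences, called or known pathway genes, and up to 4 per other list by absolute rho. Genes named as called in a list, Angpt1, and the genes called without other lineages or shared by Lta and Ltb were added after their values were seen. Alternatives covered the covariates, the deposited values, Pearson correlation, the filters, left-out mice and cells, and sets in place of mice. The design expected counts or TPM, and its rank test was kept.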

Additional observations from a re-analysis of the deposited data

Results flagged for a closer look

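Of 92 groups of 4 mice examined, 5 held a mouse far from the other 3, and chance gives about 1 in 20 such groups. The excess of cells with both Lta and Cd27 was -3.25 percentage points in 1A, against 0.67 to 1.08 in the others. The rho of Chpf with Lta was -0.22 in 2B, against 0.47 to 0.51 in the others. With Fasl, Trbj1-5 had a rho of 0.12 in 2A, against 0.32 to 0.34 in the others, and Ptp4a3 had 0.41 in 2B, against 0.19 to 0.23. The rho of Hsp90ab1 with Cd27 was 0.53 in 2B, against 0.24 in each of the others.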

How the results depend on the processing

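Counts of called partners moved by over 1.5 times under these alternatives, with the cause not tested. With the set as a covariate, 6 partners were called for Lta, 1 for Ltb and 76 for the difference of Lta and Cd27. With the deposited values the counts were 0 for Lta, 37 for Ltb and 0 for that difference. With the Pearson correlation they were 0 for Lta, 208 for Ltb, 18 for Fasl, 593 for Cd27, 450 for Lta minus Cd27 and 1 for Ltb minus Lta. With no filter on low values Lta had 4. With levels under 10 set to 0 Lta had 1, Lta minus Cd27 had 19 and Ltb minus Lta had 5. Without the first 8 wells of each set Lta had 1, Ltb 5 and Lta minus Cd27 13. With sets in place of mice Lta had 95, Ltb 130, Cd27 113 and Lta minus Cd27 322. Without the NK/ILC-like cells Lta had 0, Ltb 3, Cd27 399, Lta minus Cd27 17 and Ltb minus Lta 1. Without the dendritic-like, mast-like and cluster 7 cells Fasl had 0, Cd27 5 and Lta minus Cd27 31. Without the thin mouse and set pairs Lta had 5, Ltb 2, Cd27 114 and Lta minus Cd27 75. These last 3 alternatives were chosen after seeing the data. Counts of 0 had 435 (deposited values, Lta), 1120 (deposited values, Lta minus Cd27), 816 (Pearson), 499 (NK/ILC-like cells left out) and 683 (Fasl) genes at an unadjusted p under 0.05.

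Leaving out each mouse gave 0 to 112 calls for Lta, 0 to 143 for Ltb, 0 to 11 for Fasl, 10 to 280 for Cd27, 17 to 220 for Lta minus Cd27 and 0 for Ltb minus Lta. Mean detection then ranged from 11.9% to 14.8% for Lta, 64.9% to 68.98% for Ltb, 51.1% to 55.6% for Fasl and 92.2% to 93.4% for Cd27. The co-detection excess ranged from 1.52 to 2.81 points for Lta with Ltb, -2.03 to -0.70 for Lta with Fasl, -0.62 to 0.83 for Lta with Cd27, 1.41 to 4.31 for Ltb with Fasl, 1.27 to 3.15 for Ltb with Cd27 and 3.00 to 3.86 for Fasl with Cd27. At a level of at least 10, mean detection was 5.34% for Lta, 54.01% for Ltb, 41.3% for Fasl and 78.1% for Cd27, and the excess of Lta with Cd27 turned to 0.083, as it did to 0.827 without 1A. Without the first 8 wells Lta was detected in 8.58% of cells as a mean over mice, and without the dendritic-like, mast-like and cluster 7 cells Cd27 in 96.8%. With 5 clusters in place of 8, the NK/ILC-like cells fell into a cluster of 41 cells with those of cluster 7 and the mast-like cluster, and that merged cluster had Lta in 34.1% and Ltb in 80.5% of cells. Of 1041 alternative values of the 72 called named genes, 1040 kept their sign and 627 were called. The reversed one was Lck with Cd27, -0.0236 without the dendritic-like, mast-like and cluster 7 cells. Because the called genes were chosen by rho in mostly the same cells, a kept sign is no independent support.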

Other observations

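Neighbours of the lymphotoxin genes are given as a description, as the mean rho over mice with Lta and then with Ltb. On the Ltb side, Lst1 had -0.22 and -0.11 and Aif1 had 0.04 and -0.01. On the Lta side, Nfkbil1 had 0.13 and 0.03, Atp6v1g2 had 0.04 and 0.01, Ddx39b had -0.04 and 0.08, and the class I histocompatibility gene H2-D1 had 0.21 and 0.24. Most of these values lie near 0. Tnf, which lies 3060 bases from Ltb and 1157 bases from Lta, had 0.04 and 0.07.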
